A study of Homo sapiens with 9 samples.

Results

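The genes of fatty acid oxidation were followed in HepG2, a long-established line derived from a human liver tumour, after exposure to recombinant SPARC. The members were chosen by name: 33 symbols of fatty acid uptake, activation, carnitine transport, mitochondrial and peroxisomal beta-oxidation, and PPAR-responsive fuel control were matched to the gene symbols of the array platform. A transcript cluster, the set of probes that the array assigns to 1 gene, carried the symbol of 32 of them, out of 17687 genes in all. Each of the 32 genes had a single cluster. ACSL3, a long-chain acyl-CoA synthetase, is not analysed here. The set was named for ketogenesis as well, but none of its members synthesises ketone bodies, and ketone body genes are given near the end.

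Cells were left untreated or received SPARC, a secreted matricellular glycoprotein, at 200 or 800 ng/ml for 24 h before the RNA was taken. Each of the 3 groups held 3 one-colour arrays with biotin-labelled total RNA, 9 arrays in all. All groups were the same unmodified cell line, and no vehicle is named for the untreated cells. The extraction text of the labels names untreated cells and the 800 ng/ml dose only. Nothing in the labels says that replicates came from separate cultures, so the p-values measure the spread between these arrays, which may be technical. HepG2 is a tumour line, and its fuel use need not be that of normal hepatocytes.

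Long-chain fatty acids enter cells partly through CD36, are carried in the cytosol by FABP1, and are activated to acyl-CoA by the ACSL enzymes. CPT1A, SLC25A20 and CPT2 move the acyl group into mitochondria as its carnitine ester. Each turn of beta-oxidation there runs through an acyl-CoA dehydrogenase, a hydratase, a hydroxyacyl-CoA dehydrogenase and a thiolase, with electrons passed to the respiratory chain through ETFA, ETFB and ETFDH. Peroxisomes shorten very long and branched chains. In liver, the nuclear receptor PPARA drives many of these genes during fasting, and the acetyl-CoA they release feeds ketone body synthesis.

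The sequences upstream of 4 members are shown. HADHA and HADHB are shown for their layout and not for their values, since they encode the subunits of one enzyme from neighbouring starts. ACADS had the largest difference between the doses, and FABP1 had the largest difference of 200 ng/ml from untreated cells without untreated replicate 2. Each run gives the 250 bases before the transcript start, 5′ to 3′ on the gene's strand, from RefSeq, assembly GRCh38.p14. Capitals mark the GC box GGGCGG or its reverse complement in HADHA, HADHB and ACADS. In FABP1 they mark the nuclear receptor half-site AGGTCA, here as its reverse complement, and the TATA element TATAAA.
HADHA, chr2:26244633-26244882, minus strand: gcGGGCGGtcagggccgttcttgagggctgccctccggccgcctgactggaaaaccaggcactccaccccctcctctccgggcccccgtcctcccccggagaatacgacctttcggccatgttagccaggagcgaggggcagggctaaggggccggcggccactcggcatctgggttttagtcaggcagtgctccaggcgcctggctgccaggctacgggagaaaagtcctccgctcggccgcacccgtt
HADHB, chr2:26244689-26244938, plus strand: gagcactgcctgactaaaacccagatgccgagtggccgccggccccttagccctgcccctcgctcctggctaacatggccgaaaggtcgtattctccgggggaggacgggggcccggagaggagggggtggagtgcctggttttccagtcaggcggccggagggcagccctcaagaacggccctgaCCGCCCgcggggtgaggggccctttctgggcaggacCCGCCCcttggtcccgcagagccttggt
ACADS, chr12:120725576-120725825, plus strand: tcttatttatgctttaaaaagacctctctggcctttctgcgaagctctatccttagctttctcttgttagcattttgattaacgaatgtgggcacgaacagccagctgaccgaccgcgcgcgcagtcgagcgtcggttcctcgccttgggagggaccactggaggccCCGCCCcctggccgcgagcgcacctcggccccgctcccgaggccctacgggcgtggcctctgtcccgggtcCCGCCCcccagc
FABP1, chr2:88128063-88128312, minus strand: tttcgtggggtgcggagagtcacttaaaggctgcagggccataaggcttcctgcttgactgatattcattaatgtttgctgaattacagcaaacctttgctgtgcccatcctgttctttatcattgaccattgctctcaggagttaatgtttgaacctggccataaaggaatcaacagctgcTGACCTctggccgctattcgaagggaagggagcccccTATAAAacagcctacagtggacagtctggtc
The HADHA and HADHB starts lie 307 bases apart on opposite strands, and 194 of the bases shown are the same DNA. The single GC box of the HADHA run and the first of the 2 in the HADHB run are the same 6 bases.

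RefSeq windows of 250 bases before to 50 after a start were matched for 26 of the 32 members, in 41 windows. The half-site AGGTCA, searched on both strands as were all motifs, was in 2 of the 41 windows (4.88%), those of ACSL5 and FABP1, against 13.8% of all 35116 windows. FABP1 held it at positions −68 to −63 and again at 11 to 16 after the start. The direct repeat AGGTCANAGGTCA, the form that PPAR heterodimers are known to bind, contains the half-site and was in 0 of 41 windows, against 0.0228% of all windows. At so low a rate 0 of 41 shows nothing of the members, and only the exact repeat was searched. GGGCGG was in 24 windows (58.5%, 20 members), against 45.0% of all windows. TATAAA was in 6 windows (14.6%), of ACADVL, ACSL1, ANGPTL4, CD36 and FABP1, against 11.5%. These matches describe letters in short windows and say nothing of binding.

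Untreated replicate 2 stood apart before any dose was considered. Its correlation with the other arrays over all genes was 0.891 to 0.920, whereas the other 8 arrays correlated at 0.979 to 0.991. Of the 32 fatty acid oxidation genes, 28 lay below the mean of untreated replicates 1 and 3 in this array, with a median deviation of −0.82 on the log2 scale. Replicate 2 held the lowest signal of the 9 arrays for 25 of the 32, against 41.7% of all genes. All values below are log2 signals, where a difference of 1 is a doubling. Each comparison of the whole set is given with and without this array, but some single genes are given only 1 way. Signals of different genes come from different probes. They are ranked to place genes by signal strength and averaged over marker lists, but are not read as relative amounts of transcript.

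The deviation followed signal strength. Genes were put in 4 bins of equal number by mean signal, bin 1 the dimmest. Over all genes the median deviation was 0.35, 0.56, −0.50 and −0.80 in bins 1 to 4. The fatty acid oxidation genes sat mostly in the brighter bins, with 1, 3, 10 and 18 of them in bins 1 to 4 and medians of 0.11, −0.41, −0.66 and −0.95. In bin 4, 18 of 18 members were below, as were 93.2% of all genes. DECR1, the mitochondrial dienoyl-CoA reductase, had the largest deviation of the 32, −1.86. The cause of this array's deviation was not tested.

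**Figure D1:**
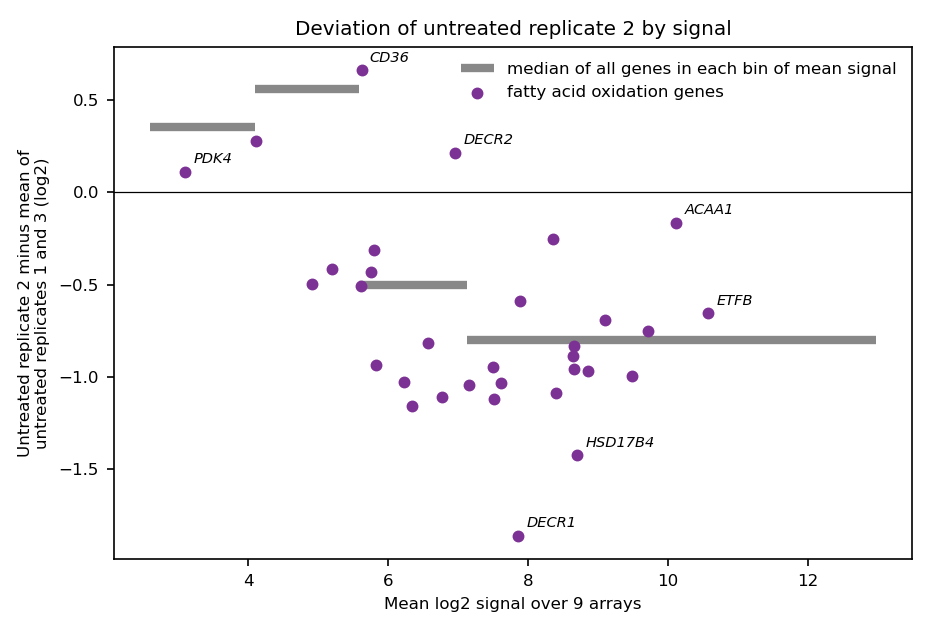
Deviation of untreated replicate 2 from the mean of untreated replicates 1 and 3 (vertical axis, log2) against mean signal over the 9 arrays (horizontal axis, log2). Points are the 32 fatty acid oxidation genes and grey bars the medians of all genes in 4 bins of signal, which run from 0.35 in the dimmest to −0.80 in the brightest, and 28 points lie below 0.

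**Figure D2:**
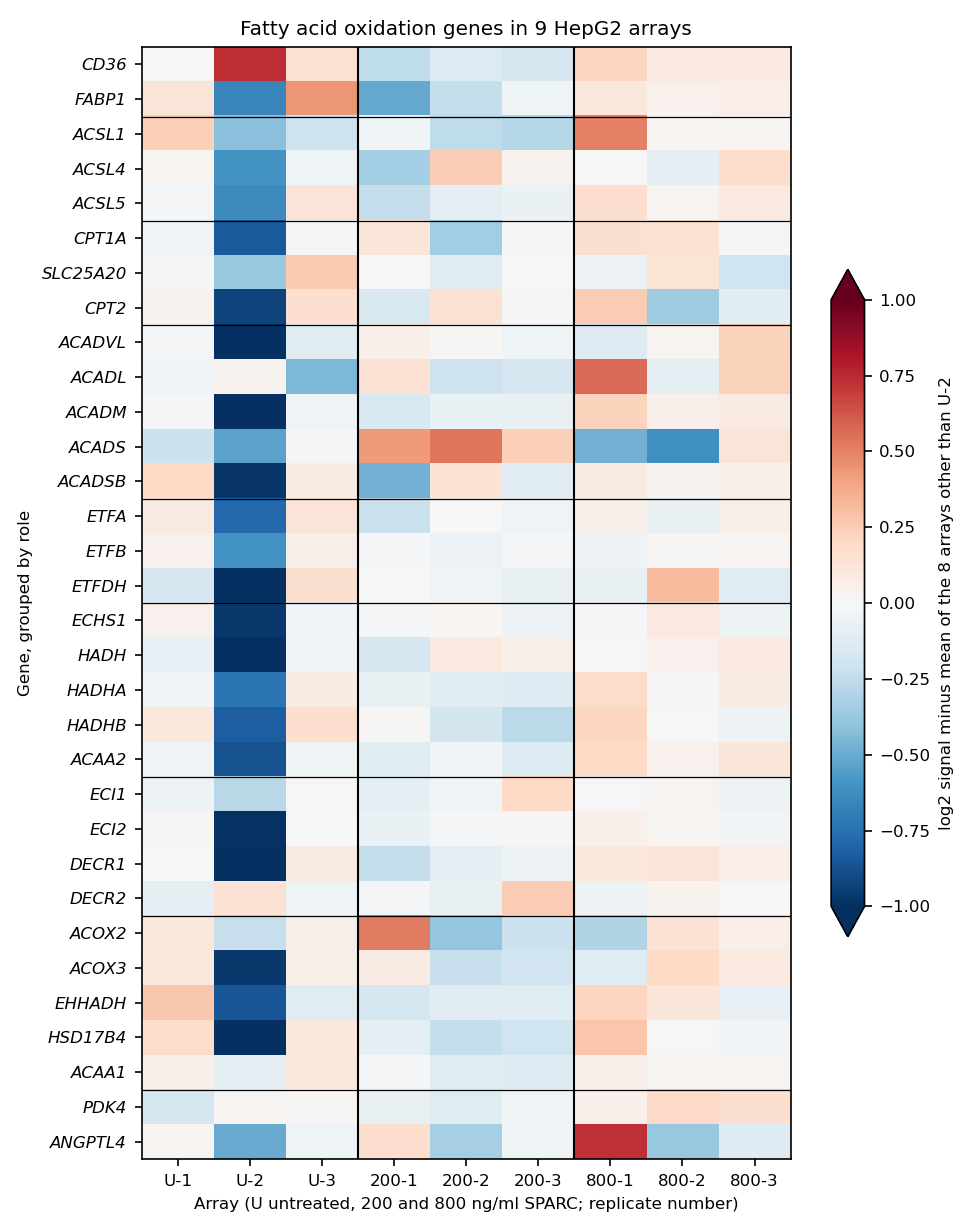
Log2 signal of the 32 genes (vertical axis, grouped by role) in the 9 arrays (horizontal axis), each shown as the difference from the gene's mean over the 8 arrays other than untreated replicate 2, with colours ending at 1 and −1. The column of untreated replicate 2 is low for 28 genes, whereas ACADS is high in the 3 arrays at 200 ng/ml.

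Cells given 200 ng/ml had higher mean signals than untreated cells for 26 of the 32 genes, with a median log2 difference of 0.13, when all 9 arrays were used. Without untreated replicate 2 the sign of the median turned: 7 genes were higher and 25 lower, with a median of −0.09. Over all genes, 54.1% were higher with all arrays and 47.2% without replicate 2, with medians of 0.03 and −0.02. Most members, 28 of 32, had a mean signal above the median of all genes. Among all genes above that median, a reference chosen after the deviation of untreated replicate 2 was seen, 73% were higher with all arrays (median 0.14) and 35.8% without replicate 2 (median −0.07). Of the 28 members, 23 and 4 were higher. No member passed the test in either fit (limma, 0 of 32 at an adjusted p under 0.05, against 0% of all genes, smallest adjusted p among members 0.966 and 0.323). At an unadjusted p under 0.05 there were 2 members with all arrays, ACADS and CD36, against 1.78% of all genes. Without replicate 2 there were 4, ACADS, CD36, FABP1 and HSD17B4, which is 12.5% of the members against 11.3% of all genes.

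The 3 arrays at 200 ng/ml lay outside the range of the 3 untreated arrays for 2 members. ACADS was higher, where 3.92% of all genes were separated upward, and CD36 was lower, where 3.06% were separated downward. Without untreated replicate 2, 11 members were separated downward, 34.4% of the 32 against 17.8% of all genes, and ACADS alone upward, against 13.8%. The 11 were CD36, FABP1, ACSL5, ACADM, ETFA, ETFB, HADHA, HADHB, DECR1, HSD17B4 and ACAA1. All 11 were among the 28 members whose mean signal was above the median of all genes, and 26.8% of the genes above that median were separated downward.

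At 800 ng/ml the mean was above that of untreated cells for 28 of 32 genes with all arrays, with a median of 0.28, and for 20 of 32 without untreated replicate 2, with a median of 0.02. Of all genes, 54.6% and 48.2% were higher, with medians of 0.04 and −0.01. Of the genes above the median signal, 76.7% and 45.9% were higher, with medians of 0.21 and −0.01, and 25 and 17 of the 28 members there were higher. No member passed in either fit (limma, 0 of 32 against 0% of all genes, smallest adjusted p among members 0.659 and 0.931). At an unadjusted p under 0.05 there were 0 members with all arrays, against 4.17% of all genes, and 1 without replicate 2, ACADL, against 5.36%.

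The groups did not overlap for 5 members with all arrays, CPT1A, ACADM, HADH, ACAA2 and PDK4. All of them were higher at 800 ng/ml, where 6.08% of all genes were separated upward and 5.14% downward. The same 5 were separated upward without untreated replicate 2, against 10.5% of all genes. FABP1, ETFA, ETFB and ACAA1 were then separated downward, against 11.8%. PDK4, among the 5 separated upward, had a mean signal at percentile 4.49 of all genes. Both comparisons with untreated cells share the untreated arrays, so their differences are not independent of each other.

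The comparison of the doses does not use the untreated means. At 800 ng/ml the mean was above that at 200 ng/ml for 26 of the 32 genes, with a median of 0.16, where 52.3% of all genes were higher with a median of 0.01. Among genes above the median signal 62% were higher with a median of 0.06, and 23 of the 28 members above it were higher. No member passed (limma, 0 of 32 against 0% of all genes with and without untreated replicate 2, smallest adjusted p 0.999 and 0.201). At an unadjusted p under 0.05 there was 1 member with all arrays, ACADS, against 2.41% of all genes. Without untreated replicate 2, which entered only through the shared spread, there were 4 (ACADS, CD36, FABP1 and DECR1), against 15.3% of all genes.

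The 2 doses did not overlap for 13 members. At 800 ng/ml 12 were higher, 37.5% of the members against 12.1% of all genes. They were CD36, FABP1, ACSL1, ACSL5, ACADM, HADHA, ACAA2, DECR1, EHHADH, HSD17B4, ACAA1 and PDK4. Above the median signal 11 of 28 members were separated upward, against 18.2% of genes. ACADS was the single member separated downward, against 9.72% of all genes.

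Array by array, the median deviation of the members from their mean over the 8 arrays other than untreated replicate 2 was 0.01 in untreated replicate 1 and 0.03 in replicate 3. It was −0.07, −0.10 and −0.05 in the 200 ng/ml arrays and 0.08, 0.03 and 0.05 in the 800 ng/ml arrays. In this median the arrays at 200 ng/ml were thus the lowest of the 8 and did not overlap the other 5. Over all genes the median was 0.004, −0.015 and −0.012 at 200 ng/ml and −0.0001 to 0.013 in the other 5. The SD of all signals was also lowest at 200 ng/ml, with 1.914, 1.976 and 1.970 against 1.980 to 2.003. Of the 32 members 28 were above the median signal, and their array medians were not set against genes of like signal. Without untreated replicate 2, the group mean was lowest at 200 ng/ml for 22 of 32 members, against 40% of all genes, and highest at 800 ng/ml for 18, against 31.7%. Replicate 1 at 800 ng/ml held the highest signal of the 8 arrays for 13 members, against 16.4% of all genes, and replicate 1 at 200 ng/ml the lowest for 12, against 20.4% of all genes. Without 800 ng/ml replicate 1 and untreated replicate 2 the median difference between the doses was 0.13, with 27 members higher.

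**Figure D3:**
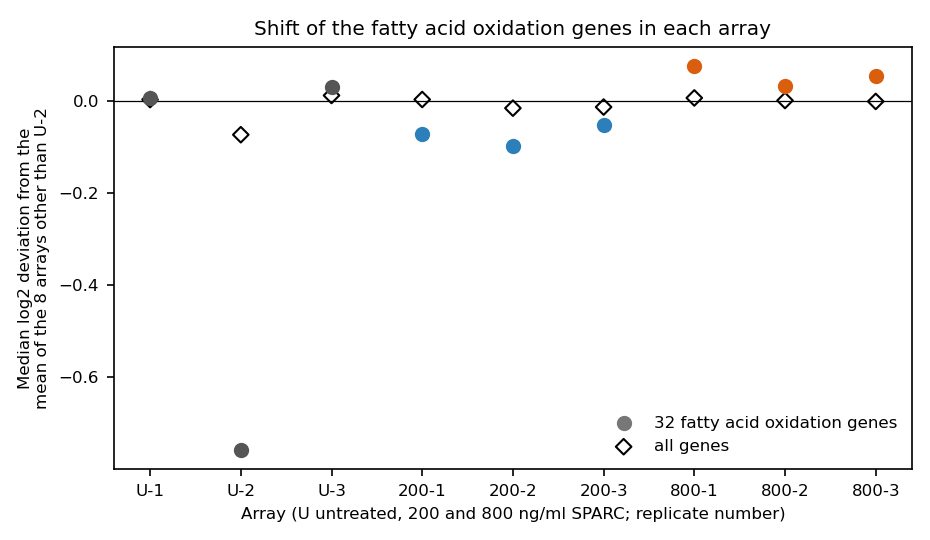
Median deviation (vertical axis, log2) of the 32 fatty acid oxidation genes (filled) and of all genes (open diamonds) from each gene's mean over the 8 arrays other than untreated replicate 2, for the 9 arrays (horizontal axis). Apart from untreated replicate 2 at −0.76, the members range from −0.10 to 0.08, and the 3 arrays at 200 ng/ml are below the other 5.

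**Figure D4:**
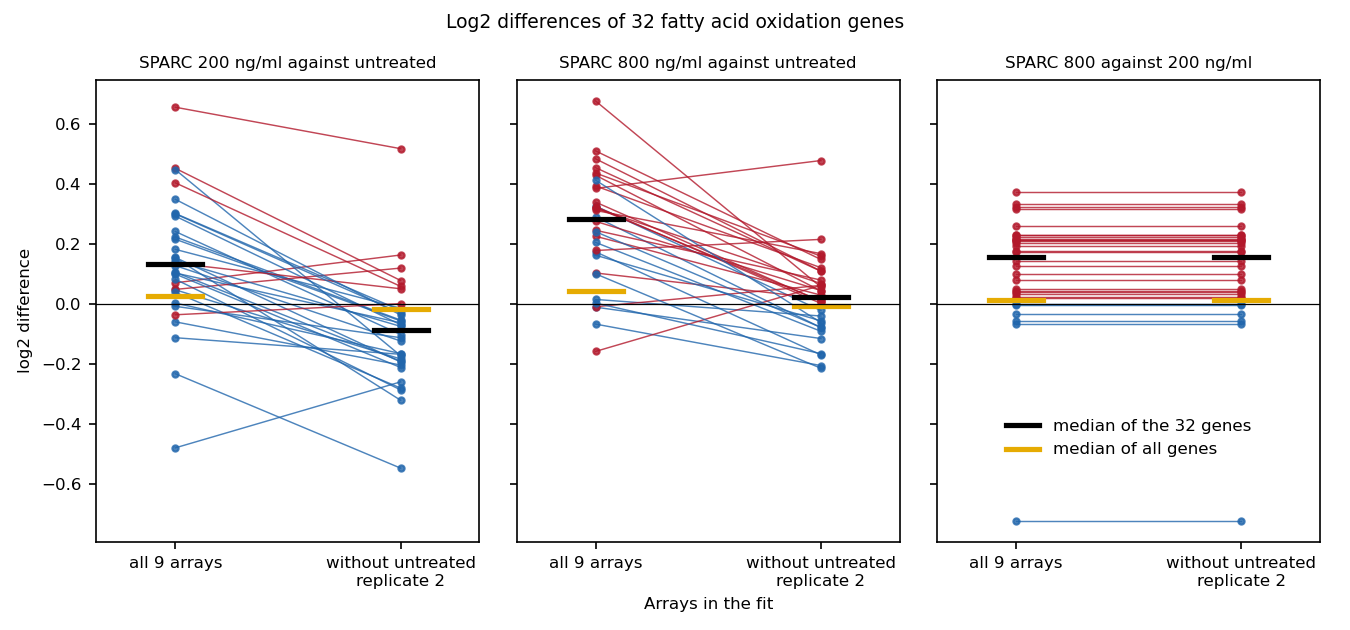
Log2 difference of each of the 32 genes (vertical axis) in 3 comparisons, with all 9 arrays and without untreated replicate 2 (horizontal axis). Lines join the values of 1 gene, red where the value without that array is above 0 and blue where it is below, and bars are medians. The members' median goes from 0.13 to −0.09 at 200 ng/ml and from 0.28 to 0.02 at 800 ng/ml, and stays at 0.16 between the doses.

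Uptake and binding genes had their lowest group mean at 200 ng/ml. CD36 (cluster TC0700008190.hg.1), the membrane fatty acid translocase, had 5.53, 6.27 and 5.69 in untreated replicates 1 to 3, 5.29, 5.40 and 5.37 at 200 ng/ml, and 5.75, 5.63 and 5.64 at 800 ng/ml. The 200 ng/ml arrays lay below all others, and untreated replicate 2 was the highest array. Its log2 difference of 200 ng/ml from untreated was −0.48 ± 0.21 (SE; limma, adjusted p = 0.966), and −0.26 ± 0.11 without replicate 2 (adjusted p = 0.437). Between the doses it was 0.32 ± 0.21 (adjusted p = 0.999).

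FABP1 (cluster TC0200013362.hg.1), the liver fatty acid binding protein, had 7.70, 6.91 and 8.01 in untreated arrays, 7.06, 7.33 and 7.53 at 200 ng/ml, and 7.67, 7.62 and 7.64 at 800 ng/ml. Untreated replicate 2 was the lowest of the 9, and the untreated arrays spanned both doses. Without it, the difference of 200 ng/ml from untreated was −0.55 ± 0.16 (limma, adjusted p = 0.323), against −0.23 ± 0.27 with it (adjusted p = 0.966). The 800 ng/ml arrays lay close together and above those at 200 ng/ml, with a difference of 0.33 ± 0.27 (adjusted p = 0.999).

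With all 9 arrays the activating enzymes overlapped the untreated arrays at both doses. Without untreated replicate 2, ACSL5 at 200 ng/ml, with 8.93, 9.07 and 9.10, lay below the untreated pair, 9.15 and 9.29. Of all genes 17.8% were separated downward there. ACSL1, the main long-chain acyl-CoA synthetase of liver and a PPAR target, had 6.04, 5.39 and 5.60 in untreated arrays, 5.78, 5.55 and 5.52 at 200 ng/ml, and 6.31, 5.82 and 5.82 at 800 ng/ml. All 800 ng/ml arrays were above those at 200 ng/ml, by a mean of 0.37 ± 0.23 (limma, adjusted p = 0.999), while the untreated arrays overlapped both. ACSL5, a synthetase of mitochondria and endoplasmic reticulum, was higher at 800 than at 200 ng/ml by 0.23 ± 0.22. ACSL4, which prefers arachidonate, had 0.04 ± 0.23.

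In the carnitine shuttle, CPT1A, the rate-limiting entry step, had 6.64, 5.82 and 6.64 in untreated arrays, 6.79, 6.31 and 6.65 at 200 ng/ml, and 6.82, 6.81 and 6.65 at 800 ng/ml. The 800 ng/ml arrays lay above the untreated ones, one of them only just, and the 200 ng/ml arrays spread over both. The difference of 800 ng/ml from untreated was 0.39 ± 0.25 (limma, adjusted p = 0.659) and 0.12 ± 0.15 without untreated replicate 2 (adjusted p = 0.985). SLC25A20, the carnitine-acylcarnitine carrier, and CPT2, which re-forms acyl-CoA in the matrix, had 0.00 ± 0.21 and 0.17 ± 0.29 at 800 ng/ml, and −0.17 ± 0.14 and −0.17 ± 0.18 without that array.

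The acyl-CoA dehydrogenases, which take the first oxidative step for chains of different length, held the widest contrast. ACADS (cluster TC1200009141.hg.1), the short-chain enzyme, had 5.04, 4.72 and 5.23 in untreated arrays, 5.68, 5.79 and 5.49 at 200 ng/ml, and 4.77, 4.64 and 5.38 at 800 ng/ml. The 200 ng/ml arrays were the highest of the 9, and the 800 ng/ml arrays overlapped the untreated ones. The difference of 200 ng/ml from untreated was 0.66 ± 0.24 (limma, adjusted p = 0.966) and 0.52 ± 0.21 without replicate 2 (adjusted p = 0.413). From 200 to 800 ng/ml it was −0.72 ± 0.24, a ratio of 0.606 with a 95% interval on the log2 scale of −1.24 to −0.21 (adjusted p = 0.999, and 0.201 without untreated replicate 2). ACADS was opposite in sign to the other dehydrogenases between the doses. Its mean signal, 5.19, was at percentile 43.8 of all genes, and theirs ran from percentile 25.3 (ACADL) to 90.6 (ACADM).

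ACADM, the medium-chain enzyme, had 8.50, 7.40 and 8.48 in untreated arrays, 8.36, 8.45 and 8.44 at 200 ng/ml, and 8.74, 8.57 and 8.60 at 800 ng/ml. The 800 ng/ml arrays were the highest of the 9, and untreated replicate 2 was the lowest. The difference of 800 ng/ml from untreated was 0.51 ± 0.27 (limma, adjusted p = 0.659) and 0.15 ± 0.11 without that array (adjusted p = 0.977).

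ACADVL, the very-long-chain enzyme, had 7.63, 6.46 and 7.52 in untreated arrays, 7.70, 7.66 and 7.61 at 200 ng/ml, and 7.52, 7.68 and 7.87 at 800 ng/ml. Its differences from untreated, 0.45 ± 0.28 and 0.48 ± 0.28, were 0.08 ± 0.13 and 0.11 ± 0.13 without untreated replicate 2. ACADL, the long-chain enzyme, had 4.08, 4.15 and 3.66, then 4.25, 3.90 and 3.94, then 4.68, 4.02 and 4.34 in the same order. It was the member with the largest difference of 800 ng/ml from untreated without replicate 2, 0.48 ± 0.21 (limma, adjusted p = 0.931), although the groups overlapped. The mean ACADL signal, 4.12, was at percentile 25.3 of all genes. ACADSB, which acts on short branched chains, had 0.21 ± 0.29 between the doses.

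Over the 8 arrays other than untreated replicate 2, the electron transfer genes ETFB, ETFA and ETFDH ran from 10.58 to 10.69, 8.50 to 8.85 and 6.30 to 6.78. ETFB, the beta subunit of electron transfer flavoprotein, had 10.69, 10.03 and 10.69 in untreated arrays, 10.63, 10.58 and 10.63 at 200 ng/ml, and 10.59, 10.65 and 10.66 at 800 ng/ml. Without replicate 2 the treated arrays lay below the untreated pair, with mean differences of −0.08 ± 0.10 at 200 ng/ml and −0.06 ± 0.10 at 800 ng/ml, within their errors. ETFA, the alpha subunit, had −0.19 ± 0.12 and −0.09 ± 0.12 in the same comparisons. ETFDH, which hands the electrons to ubiquinone, had −0.04 ± 0.16 and 0.04 ± 0.16. With all arrays the 3 genes were higher than in untreated cells, by 0.11 to 0.35 at 200 ng/ml and by 0.16 to 0.43 at 800 ng/ml.

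The subunits of the trifunctional protein are described together, and their joint variation was not tested. HADHA, which carries its hydratase and long-chain dehydrogenase activities, had 9.77, 9.07 and 9.87 in untreated arrays, 9.72, 9.70 and 9.67 at 200 ng/ml, and 9.98, 9.81 and 9.87 at 800 ng/ml. HADHB, the thiolase subunit, had 8.85, 7.93 and 8.92, then 8.77, 8.57 and 8.48, then 8.96, 8.75 and 8.70. Both were lowest in untreated replicate 2, as were 25 of the 32 members, and highest in 800 ng/ml replicate 1, as were 12 of the 32. Both had a lower mean at 200 ng/ml than in untreated replicates 1 and 3, as did 25 of the 32. Their differences there were −0.12 ± 0.11 and −0.28 ± 0.13. Between the doses they had 0.19 ± 0.22 and 0.20 ± 0.26 (limma, adjusted p = 0.999 for both). The upstream runs of HADHA and HADHB share 194 bases, and any bearing of this on their values was not tested.

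ACAA2, the mitochondrial 3-ketoacyl-CoA thiolase, had 8.71, 7.88 and 8.71 in untreated arrays, 8.62, 8.72 and 8.62 at 200 ng/ml, and 8.94, 8.79 and 8.87 at 800 ng/ml. As with ACADM, the 800 ng/ml arrays were the highest of the 9, by 0.44 ± 0.23 over untreated (limma, adjusted p = 0.659) and 0.16 ± 0.11 without replicate 2 (adjusted p = 0.971). HADH, the medium- and short-chain hydroxyacyl-CoA dehydrogenase, had 7.66, 6.64 and 7.70, then 7.57, 7.84 and 7.80, then 7.74, 7.78 and 7.84. Its difference at 800 ng/ml was 0.45 ± 0.27, and 0.11 ± 0.12 without replicate 2. ECHS1, the short-chain enoyl-CoA hydratase, had 0.32 ± 0.25, and 0.00 ± 0.11 without that array.

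**Figure D5:**
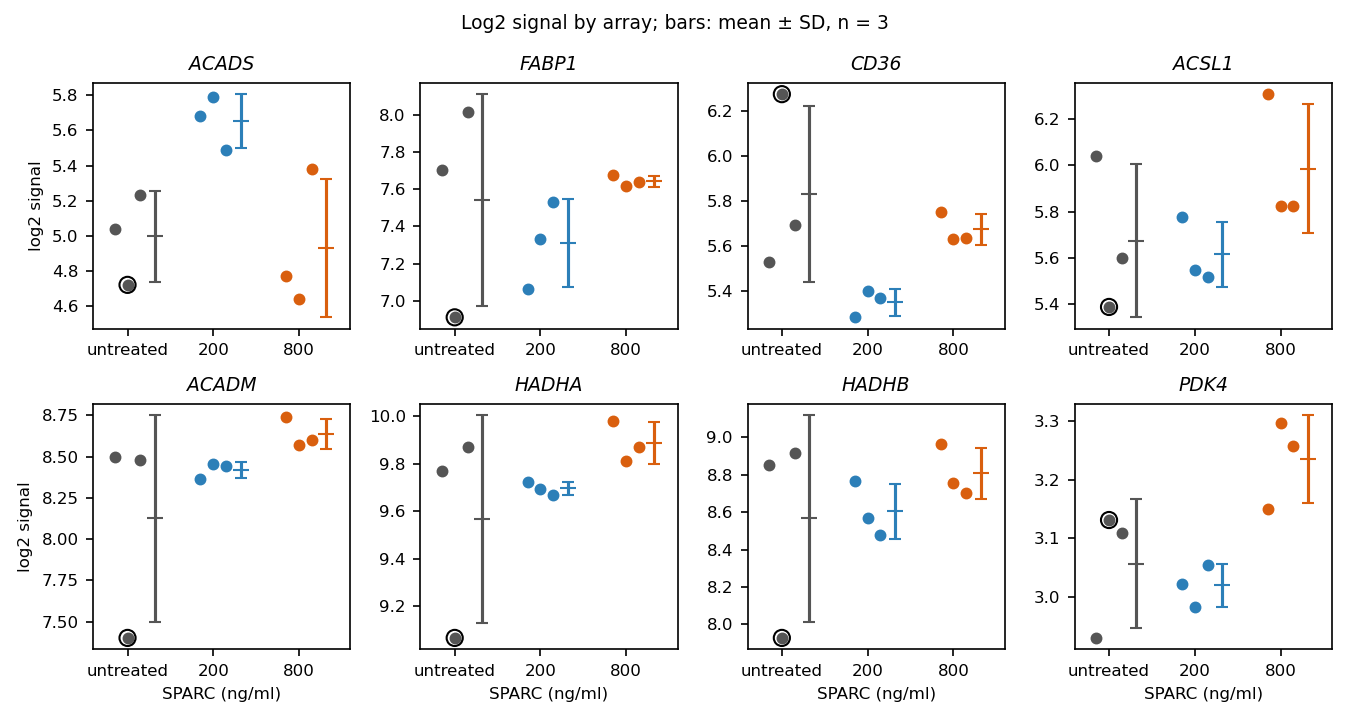
Log2 signal (vertical axes, each with its own range) of 8 fatty acid oxidation genes in untreated cells and at 200 and 800 ng/ml SPARC (horizontal axes). Points are arrays in replicate order, open circles mark untreated replicate 2, and bars are the mean ± SD of 3 arrays. ACADS is highest and CD36 lowest in the 3 arrays at 200 ng/ml.

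The auxiliary enzymes that remodel double bonds had small differences outside untreated replicate 2. DECR1 had its arrays at 800 ng/ml above those at 200 ng/ml, by 0.23 ± 0.41 with all arrays and 0.23 ± 0.10 without untreated replicate 2 (limma, adjusted p = 0.999 and 0.324). Its untreated SD was 1.08 because of that array, which sets the larger error. ECI1 and ECI2, enoyl-CoA isomerases, had −0.03 ± 0.18 and 0.04 ± 0.26 between the doses. DECR2, the peroxisomal dienoyl-CoA reductase, had −0.06 ± 0.18, and untreated replicate 2 was above the other untreated arrays for this gene.

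Among peroxisomal genes, HSD17B4, the D-bifunctional protein, had 9.02, 7.56 and 8.95 in untreated arrays, 8.74, 8.60 and 8.64 at 200 ng/ml, and 9.11, 8.84 and 8.81 at 800 ng/ml. The 200 ng/ml arrays lay below all arrays other than untreated replicate 2. The difference from untreated was 0.15 ± 0.33 with all arrays (limma, adjusted p = 0.968) and −0.32 ± 0.13 without replicate 2 (adjusted p = 0.411), so the sign turned with 1 array.

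ACAA1, the peroxisomal thiolase, had 10.17, 10.03 and 10.22 in untreated arrays, 10.10, 9.996 and 9.99 at 200 ng/ml, and 10.17, 10.15 and 10.15 at 800 ng/ml. Its deviation in untreated replicate 2, −0.17, was the smallest among the 18 members of bin 4. The doses did not overlap and differed by 0.13 ± 0.17. EHHADH, the L-bifunctional enzyme and a PPARA target, was higher at 800 than at 200 ng/ml by 0.22 ± 0.26. ACOX3 and ACOX2, acyl-CoA oxidases of branched chains, had 0.17 ± 0.28 and 0.00 ± 0.25, and all 5 peroxisomal genes were lower at 200 ng/ml than in untreated cells without replicate 2, with a median of −0.19.

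Both PPAR-responsive regulators had their highest group mean at 800 ng/ml, and neither passed the test. PDK4, the kinase that shuts pyruvate dehydrogenase when fat is burned, had 2.93, 3.13 and 3.11 in untreated arrays, 3.02, 2.98 and 3.06 at 200 ng/ml, and 3.15, 3.30 and 3.26 at 800 ng/ml. The 800 ng/ml arrays were the highest, by 0.18 ± 0.17 over untreated (limma, adjusted p = 0.662) and 0.21 ± 0.11 without replicate 2 (adjusted p = 0.971). ANGPTL4, a secreted inhibitor of lipoprotein lipase, had 5.001, 4.47 and 4.93, then 5.14, 4.64 and 4.93, then 5.70, 4.60 and 4.84. Only 800 ng/ml replicate 1 stood high for ANGPTL4, and the groups overlapped. Its differences of 800 ng/ml from untreated and from 200 ng/ml were 0.25 ± 0.29 and 0.14 ± 0.29, and 0.08 ± 0.29 from untreated without replicate 2.

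The other genes of the pathway, 74 listed and 64 measured, did not pass in any comparison, with or without untreated replicate 2 (limma, 0 of 64 higher and 0 lower). With all arrays 41 were higher at 200 ng/ml and 43 at 800 ng/ml than in untreated cells, with medians of 0.13 and 0.18. Without replicate 2 these were 24 and 29, with medians of −0.04 and 0.00. Between the doses 39 were higher at 800 ng/ml, with a median of 0.05.

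Among the ketone body genes 5 were measured. BDH1, which interconverts the ketone bodies, had 6.09, 5.10 and 5.82 in untreated arrays, 5.86, 5.14 and 5.65 at 200 ng/ml, and 6.19, 5.83 and 5.96 at 800 ng/ml. The 200 ng/ml replicate 2 was nearly as low as untreated replicate 2, and the doses differed by 0.44 ± 0.28 (limma, adjusted p = 0.999). ACAT1, the mitochondrial acetoacetyl-CoA thiolase, had 7.10, 5.73 and 7.11, then 6.64, 6.71 and 6.63, then 6.99, 6.78 and 6.77. Without replicate 2 its difference of 200 ng/ml from untreated was −0.44 ± 0.12 (adjusted p = 0.310), against 0.01 ± 0.32 with it.

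PPARA itself had 6.12, 7.05 and 6.84 in untreated arrays, 6.53, 6.63 and 6.47 at 200 ng/ml, and 6.58, 6.31 and 6.51 at 800 ng/ml, so that the untreated arrays spanned both doses. Its coactivator PPARGC1A had −0.13 ± 0.13 and −0.02 ± 0.13 at 200 and 800 ng/ml without untreated replicate 2. With all arrays PPARGC1A had 0.23 ± 0.28 and 0.34 ± 0.28, so the sign turned with that array. With all arrays, the smallest p at 800 ng/ml against untreated belonged to CYP4A11 and ACSS1. CYP4A11, a fatty acid omega-hydroxylase, had −0.69 ± 0.24 (limma, adjusted p = 0.659). ACSS1, a mitochondrial acetyl-CoA synthetase, had −0.47 ± 0.22. Without untreated replicate 2 CYP4A11 had −0.50 ± 0.20 and ACSS1 −0.22 ± 0.12. At 200 ng/ml the smallest p with all arrays belonged to SLC27A1 and ABCD2. SLC27A1, a fatty acid transport protein, had 0.41 ± 0.20, and ABCD2, a peroxisomal transporter, −0.38 ± 0.19. Without untreated replicate 2 SLC27A1 had 0.32 ± 0.16 and ABCD2 −0.24 ± 0.12. The mean signals of CYP4A11 and ABCD2, 3.55 and 3.51, were in bin 1, the dimmest, which ended at 4.09. Between the doses HILPDA, a lipid droplet protein, had −0.51 ± 0.21 and SLC27A1 −0.41 ± 0.20 (adjusted p = 0.999 for both).

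Markers of other cells were read in the same arrays. The 8 measured hepatocyte markers of 10, ALB and AFP among them, had a mean log2 signal of 10.18 in untreated replicate 2 and 10.32 to 10.50 in the others. In untreated replicate 2 the mean of 10 blood and Kupffer cell markers was 6.15 against 5.27 to 5.56 elsewhere. It was 5.02 against 4.10 to 4.50 for 8 endothelial markers, 5.75 against 4.93 to 5.21 for 7 fibroblast and stellate cell markers, and 4.42 against 3.88 to 4.21 for 5 adipocyte markers. Not every marker rose there. LYZ, CD68 and ACTA2 had 11.37, 7.15 and 7.35 in untreated replicate 2, their lowest of the 9 arrays. Over all genes the median deviation of that array was 0.35, 0.56, −0.50 and −0.80 in bins 1 to 4 of signal. The marker lists were not set against genes of like signal. The 11 astrocyte and neuron markers had means of 5.88 and 5.96 in 800 ng/ml replicates 2 and 3 against 4.21 to 4.77 in the other arrays. In those 2 arrays 7 of the 11 were above the median of all genes, against 1 in each other array. Not all 11 rose: GAP43 had 4.07 and 4.96 there against 4.44 to 5.02 elsewhere. SNAP25 had 4.66 and 4.60 against 4.24 to 5.12. No marker passed in any comparison (limma, 0 called). With those 2 arrays and untreated replicate 2 left out, the median difference of the fatty acid oxidation genes between the doses was 0.19, with 22 of 32 higher, from a single 800 ng/ml array. The part of these markers in the other results was not tested. In bulk RNA, fewer cells expressing a gene and less RNA per cell cannot be told apart.

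The median 95% interval of a member reached 0.55 to either side of its difference with all arrays, a 1.46-fold change. Without untreated replicate 2 it reached 0.29 against untreated cells (1.22-fold) and 0.26 between the doses (1.20-fold). These are intervals of single genes before any adjustment, and a p above the threshold does not show that a difference is absent. When arrays were weighted by their fit, with a weight of 0.0399 for untreated replicate 2 and 10.7 for replicate 1, 4 members passed at 200 ng/ml against untreated (ACSL1, ACADS, EHHADH and HSD17B4) among 1971 genes, which is 12.5% of the members against 11.1% of all genes. With weights but without replicate 2, 0 genes passed.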

How the data were processed

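Total RNA of 9 HepG2 samples was hybridised to one-colour arrays, per the labels. The authors deposited 1 table of log2 values by transcript cluster and array. No label states the scale, which was read from the spread of the values, with normalization and background correction not given in the sources used here. The submitters' processing notes name R 3.0. Without detection calls, low signals are given only as signals. Normalization of all arrays together, if done, would have reduced overall differences between them. Precision is limited by having 3 arrays a group.

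Of 21448 clusters, 17709 carried 1 symbol of the platform annotation, 0 several and 3739 none. For genes with several clusters the one with the highest mean was used, which left 17687 genes. RefSeq names of GRCh38.p14, matched by Entrez identifier, changed 0 symbols. Identical arrays were found in 0 pairs.

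One limma model (version 3.58.1, R 4.3.3, lmFit and eBayes, default prior, two-sided) held all groups, with Benjamini-Hochberg adjustment over all genes and a threshold of 0.05. The procedure was tested on simulated data. The members, the other pathway genes and the marker lists were chosen with earlier results of these data known. Values in every array are given for the members with the smallest p in each comparison (4 with all arrays, 3 without untreated replicate 2) and the 4 with the largest difference among those whose doses do not overlap. They are also given for the 3 with the highest and the 3 with the lowest mean signal, and for CPT1A, PDK4, ANGPTL4, FABP1 and CD36. HADHB was added after its values were seen, as the partner of HADHA. Of other pathway genes, the 2 with the smallest p in each comparison with all arrays are named, besides BDH1, ACAT1, PPARA and PPARGC1A. Some genes of the rule are not reported here. Alternatives were other normalizations, filters on dim genes, another prior, array weights, a replicate block and leaving out arrays.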

Additional observations from a re-analysis of the deposited data

How the results depend on the processing

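With array weights, whose iteration stopped before convergence, 1971, 732 and 6 genes passed for 200 ng/ml against untreated, 800 ng/ml against untreated and 800 against 200 ng/ml, where the unweighted fit called 0, 0 and 0. Of the 32 members 4 passed, all at 200 ng/ml, 12.5% against 11.1% of all genes. They were ACADS at 0.56 (limma, adjusted p = 0.0313), ACSL1 at −0.44 (0.0396), EHHADH at −0.37 (0.0466) and HSD17B4 at −0.37 (0.0375), the last 2 with the sign turned. Their adjusted p in the other 21 (ACADS) or 22 alternatives ranged from 0.336, 0.521, 0.529 and 0.242 to 0.9999. With weights, 8 members were higher at 200 ng/ml and 15 at 800 ng/ml than in untreated cells. Members higher at 200 ng/ml numbered 7 to 28 when each array was left out in turn, the 7 without untreated replicate 2. They numbered 7 when 800 ng/ml replicate 1, or replicates 2 and 3, were left out too, 12 with quantile normalization of the remaining 8 arrays and 8 with weights on them. Genes called numbered 0 to 12 for 800 ng/ml against untreated and 0 to 15 between the doses when each array was left out, the higher counts without 800 ng/ml replicate 1. They were 24 and 25 with untreated replicate 2 left out as well, and 0 members were among them. The median of the members between the doses was 0.13 to 0.18 with each array left out, 0.11 with quantile normalization with or without untreated replicate 2, and 0.20 with median centring. It was 0.13 without untreated replicate 2 and 800 ng/ml replicate 1, and 0.19 without untreated replicate 2 and 800 ng/ml replicates 2 and 3. Correlations between the deviations of same-numbered arrays were −0.25 to 0.11, and those of differently numbered arrays −0.24 to 0.27. The deviations were taken from group means that include untreated replicate 2, so they cannot show whether the samples were paired. With the replicate block 0 genes passed in each comparison with all 9 arrays. With the replicate block and without untreated replicate 2, 7 members were higher at 200 ng/ml and 16 at 800 ng/ml. Members higher between the doses numbered 24 to 29 under quantile normalization, median centring and each array left out in turn, and 22 with untreated replicate 2 and 800 ng/ml replicates 2 and 3 left out.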
